A study of Mus musculus with 6 samples.

Results

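TRIM genes encode tripartite motif proteins, a large family in which most members are ubiquitin ligases. The set described here holds the protein-coding genes of the deposited annotation whose name is Trim followed by a digit, except Trim21, Trim25 and Trim30a, which the choice leaves out. This gives 50 genes, of 25032 genes with a read in the files. They were measured by poly(A) RNA sequencing in BV2, an immortalised mouse cell line kept as a model of microglia, the macrophages of the brain. Of the 6 libraries, 3 are labelled TDP43-NLS and come from cells overexpressing a form of the RNA-binding protein TDP-43 that the design text of the series names an NLS mutant. The other 3, from cells overexpressing green fluorescent protein (GFP), are the control. All cells shared a line and a serum-containing medium. The labels name no further treatment, time, vector, clone or species of the construct, nor whether libraries of a group came from separate cultures, so p-values measure only the spread between these libraries, which may be technical.

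A typical TRIM protein carries a RING finger, which recruits the ubiquitin-conjugating enzyme, followed by B-boxes and a coiled coil through which the proteins pair. What follows at the C-terminal end sets the class: a SPRY domain that recognises targets, a PHD finger with a bromodomain that reads chromatin, NHL repeats, a COS box that binds microtubules, or a membrane anchor. In macrophages the family is known above all for tuning antiviral and Toll-like receptor signalling, and many of its genes respond to interferon. A group of adjacent genes on mouse chromosome 7 holds the rodent relatives of primate TRIM5, a factor that blocks retroviral capsids, together with the Trim12, Trim30 and Trim34 genes.

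The promoters of the chromosome 7 genes that were called lower are shown first, because these genes belong to the same cluster and were all lower in the libraries labelled TDP43-NLS. RefSeq's promoter table gives 300 bases for each gene, 250 before and 50 after the annotated start, written 5′ to 3′ on the gene's own strand, which is the minus strand for all 3. Its build is GRCm38.p6, not the GRCm39 of the count files, so these positions apply to the promoters alone. They are chr7:104315446-104315745 for Trim12a, chr7:104353300-104353599 for Trim12c and chr7:104507800-104508099 for Trim30d. Capitals mark a match, on the opposite strand, to the core of the interferon-stimulated response element, searched on both strands as GAAA, any 2 bases and GAAA again.
Trim12a: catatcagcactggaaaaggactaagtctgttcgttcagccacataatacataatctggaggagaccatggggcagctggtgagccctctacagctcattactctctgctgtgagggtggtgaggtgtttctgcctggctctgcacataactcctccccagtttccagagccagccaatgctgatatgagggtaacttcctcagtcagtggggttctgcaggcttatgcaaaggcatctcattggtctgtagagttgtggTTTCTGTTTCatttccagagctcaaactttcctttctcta
Trim12c: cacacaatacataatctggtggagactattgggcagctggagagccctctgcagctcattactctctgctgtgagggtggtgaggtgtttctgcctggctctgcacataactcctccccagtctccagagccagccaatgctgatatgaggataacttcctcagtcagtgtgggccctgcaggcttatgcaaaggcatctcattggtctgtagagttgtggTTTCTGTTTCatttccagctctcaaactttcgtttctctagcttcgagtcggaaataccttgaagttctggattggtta
Trim30d: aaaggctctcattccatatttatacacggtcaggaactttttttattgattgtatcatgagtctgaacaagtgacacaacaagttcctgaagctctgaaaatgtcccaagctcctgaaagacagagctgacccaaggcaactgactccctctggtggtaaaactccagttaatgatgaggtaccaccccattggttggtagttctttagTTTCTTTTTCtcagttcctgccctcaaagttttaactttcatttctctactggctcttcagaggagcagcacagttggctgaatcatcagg
On its own strand the match reads GAAACAGAAA in both Trim12 genes and GAAAAAGAAA in Trim30d. Of the 7 genes of the cluster with a read, 5 hold the core in this window (Trim5 and Trim34a as well), and no match was found for Trim30b and Trim30c. Of the 38 genes of the set with a window in the table, 7 hold it, the remaining ones being Trim2 and Trim26, against 3.99% of 27025 genes. Of these last 2, Trim2 was called lower and Trim26 higher in the libraries labelled TDP43-NLS. The windows of Trim5, Trim12a and Trim12c resemble each other, so their matches are not independent of each other. The gamma-activated sequence, searched as TTCNNNGAA on both strands, was present in 5 of the 38 (Trim15, Trim30c, Trim38, Trim45 and Trim46) and in 9.55% of all genes. Every match of that palindrome counts on both strands, and the matches of the first motif in Trim26 overlap each other. The Trim12a and Trim5 windows were identical over 241 aligned bases, with 118 further gap positions (67.1% identity, gaps counted). Trim12a and Trim12c shared 247 of 260 aligned bases, with 80 gap positions (72.6%). The Trim30d window had an identity of 45.8% with that of Trim12a and 52.6% with that of Trim12c. These matches are a description of letters and were not tied to any measured binding.

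Libraries held 15062131 to 18005592 counted reads. Groups separated on the first principal component, which took 85.8% of the variance. GFP replicate 2 stood apart: its counts differed from those of the other GFP libraries with chi-square over degrees of freedom of 7.24 and 7.27, where the remaining same-group pairs had 1.20 to 2.73. Tardbp, the mouse gene for TDP-43, averaged 377 ± 9.62 CPM with TDP43-NLS and 451 ± 24 CPM with GFP (SD, n = 3 each; log2 ratio -0.26, adjusted p = 0.000291, edgeR's quasi-likelihood test). It was thus lower in the libraries labelled TDP43-NLS. The construct's own RNA was not measured separately here, so the overexpression was not checked and the direction of each result depends on the labels being right. Microglial and macrophage markers (12 of 13 with a read, Sall1 at 0) summed to 2610 to 2640 CPM with TDP43-NLS and 2540 to 2580 CPM with GFP. Single markers went both ways: Adgre1 averaged 353 CPM with TDP43-NLS and 123 CPM with GFP, while Trem2 averaged 189 CPM with TDP43-NLS and 237 CPM with GFP. Summed markers of 7 other cell types were at most 5.33 CPM in any library. In bulk RNA, fewer cells of a kind and less RNA per cell cannot be told apart.

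Of the 50 TRIM genes, 35 had enough reads to be tested in a fit over 13199 genes, and 15 did not. In the libraries labelled TDP43-NLS 9 of the 35 rose, 15 fell and 11 were not called at an adjusted p under 0.05 (edgeR's quasi-likelihood test, Benjamini-Hochberg over all tested genes). The 24 calls are 68.6% of the tested TRIM genes, where 57.5% of all tested genes were called. Higher calls were 25.7% against 29.3% of all genes, and lower calls 42.9% against 28.2%. The groups did not overlap for 26 of the 35 (74.3%, against 63.2% of all genes). Ratios are given below as log2 of TDP43-NLS over GFP, and 13 of the 24 called genes moved by less than 0.5 on that scale. The median absolute log2 ratio was 0.34 for the tested TRIM genes and 0.26 for all genes. A log2 ratio of at least 1 in size was called for 6 TRIM genes, and for 9.99% of all genes. Of these, 4 fell (Trim12a, Trim12c, Trim30d and Trim63), or 11.4% of tested TRIM genes against 3.67% of all genes, and 2 rose (Trim66 and Trim13), or 5.71% against 6.33%. Trim12a, Trim12c and Trim30d belong to the chromosome 7 cluster. Outside the cluster 32 members were tested, of which 9 rose, 12 fell and 11 were not called, with a median log2 ratio of -0.05. Among those 32, a log2 ratio of at least 1 in size was found for 3: Trim63, which fell, and Trim66 and Trim13, which rose. Trim12a, Trim12c and Trim63 reached the read minimum through the GFP libraries alone, and such genes had to differ to be tested. Without GFP replicate 2 there were again 9 higher and 15 lower calls.

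**Figure D1:**
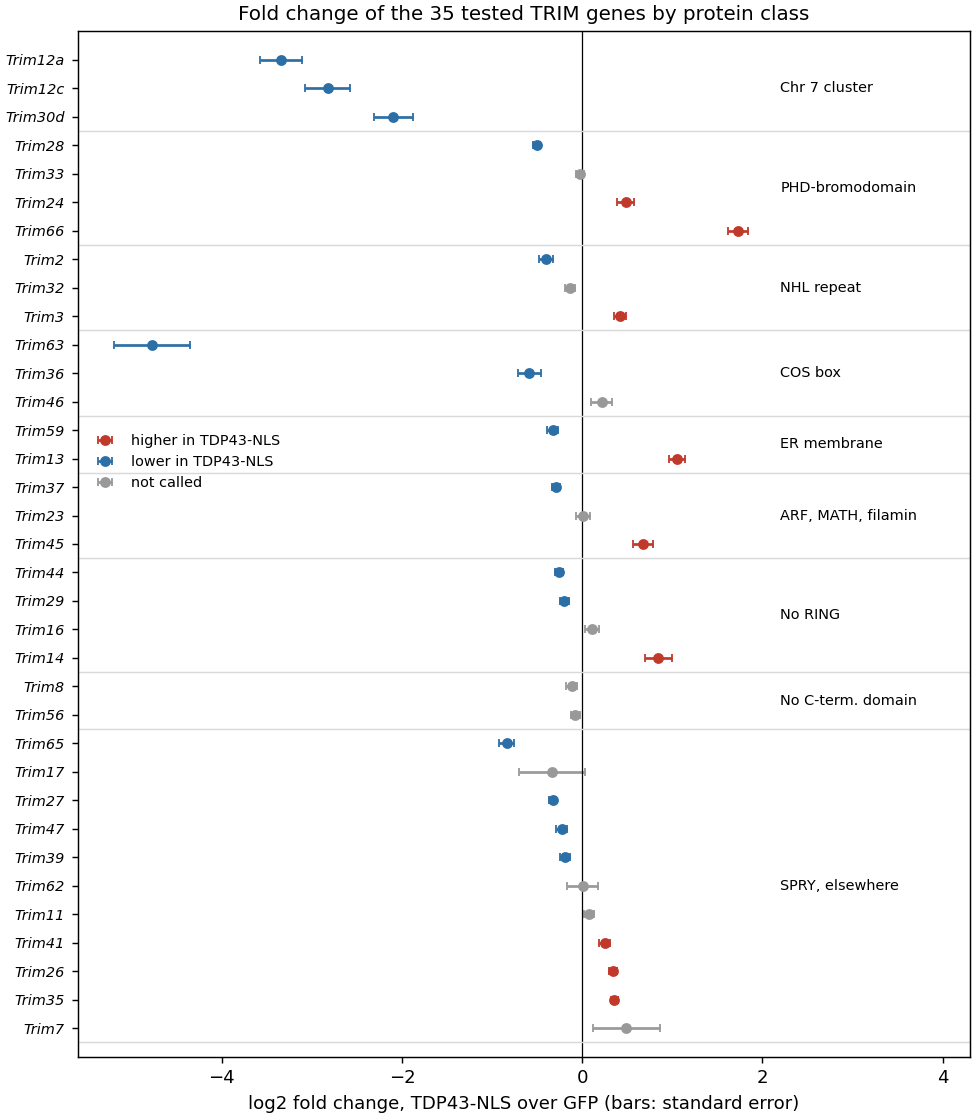
Log2 ratio (TDP43-NLS over GFP, horizontal axis) of the 35 tested TRIM genes, with standard errors as bars, grouped by protein class; colours mark genes called higher, called lower and not called. Trim63 and the 3 chromosome 7 genes lie farthest to the left, at -2.10 or below, and Trim66 (1.73) and Trim13 (1.05) farthest to the right.

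In the chromosome 7 cluster, all 3 genes with enough reads were lower in the libraries labelled TDP43-NLS. For Trim12a and Trim12c the read minimum was reached through the GFP libraries alone, so these genes had to differ to be tested. The cluster spans 263 kb on GRCm39 (chromosome 7, 103893664 to 104157056) and holds 7 genes of the set with a read. Trim12a (ENSMUSG00000066258, chromosome 7, 103949101 to 103964673, minus strand), a relative of TRIM5, had 5, 5 and 6 reads with TDP43-NLS and 52, 57 and 57 with GFP. Every TDP43-NLS library lay below every GFP library, at 0.321 ± 0.0351 CPM with TDP43-NLS and 3.32 ± 0.065 CPM with GFP (SD, n = 3 each; log2 ratio -3.35, SE 0.23, adjusted p = 5.94e-08). Trim12c (ENSMUSG00000057143, chromosome 7, 103987961 to 104002569, minus strand), the gene next to it in the set and also TRIM5-like, had 7, 9 and 5 reads with TDP43-NLS and 51, 52 and 48 with GFP (log2 ratio -2.83, SE 0.25, adjusted p = 5.18e-07). Trim30d (ENSMUSG00000057596, chromosome 7, 104119221 to 104157056, minus strand), a relative of the Toll-like receptor regulator Trim30a, had 9, 11 and 12 reads with TDP43-NLS and 39, 45 and 54 with GFP (log2 ratio -2.10, SE 0.22, adjusted p = 2.72e-06). The groups were apart in both genes. Trim30a itself, which lies between Trim30c and Trim30d and is not in the set, had 57, 60 and 67 reads with TDP43-NLS and 343, 395 and 379 with GFP (log2 ratio -2.60, adjusted p = 1.15e-10).

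**Figure D2:**
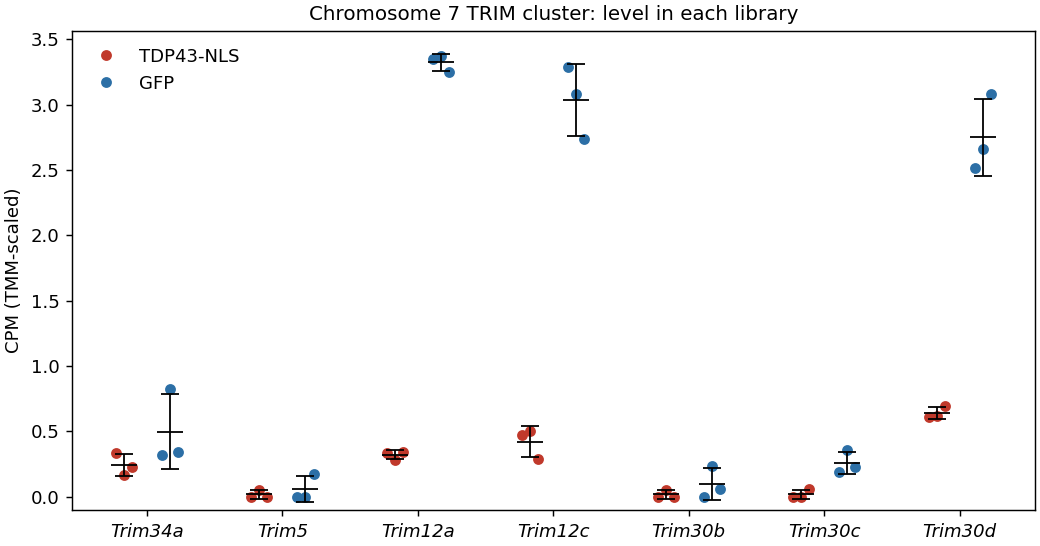
TMM-scaled CPM of the 7 cluster genes with a read, in their order along the chromosome; each point is a library, TDP43-NLS left of GFP, with the group mean and SD. For Trim12a, Trim12c and Trim30d every GFP point lies above every TDP43-NLS point, and the other genes lie under 1 CPM in every library.

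The remaining cluster genes had few reads and were not tested. Trim30c, a Trim30a relative, had 0, 0 and 1 reads with TDP43-NLS and 3, 6 and 4 with GFP, a depth-scaled ratio of 0.075 with a 95% exact interval of 0.00176 to 0.499 that covers counting error only. With no read minimum it was called lower by edgeR (adjusted p = 0.0102) and by limma on log2(FPKM + 1) (adjusted p = 0.0136), but not by DESeq2 (adjusted p = 0.0592). Trim34a had 5, 3 and 4 reads with TDP43-NLS and 5, 14 and 6 with GFP, so the groups overlapped (ratio 0.468, interval 0.214 to 0.966). Its highest count was in GFP replicate 2, the library that stood apart. Trim30b had 0, 1 and 0 reads with TDP43-NLS and 0, 4 and 1 with GFP (ratio 0.195, interval 0.00412 to 1.74). Trim5 had 0, 1 and 0 reads with TDP43-NLS and 0, 0 and 3 with GFP (ratio 0.325, interval 0.00619 to 4.05). A difference in Trim30b or Trim5 was not detectable at this depth. Trim6 and Trim34b, listed with the cluster, had no read in any library.

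Cluster genes resemble each other, so reads could be assigned to a neighbour. In the GENCODE M21 transcripts, 33.7% of the 50-base stretches of Trim12c also occur in another gene, mostly Trim5 (24.2%), and 8.05% of its 100-base stretches do. At 50 bases the share was 10.5% for Trim12a, 7.49% for Trim30d, 36.6% for Trim5 and 59.7% for Trim34a. For Trim30d most of it was with Trim30a (6.39%), and for Trim34a with Trim34b (39.8%) and Gm47248 (20.2%), none of which is in the set. How reads matching several genes were treated is unknown here. Summed over the 7 genes before the test, a choice made after seeing the data, the cluster had 26, 30 and 28 reads with TDP43-NLS and 150, 178 and 173 with GFP. The log2 ratio of the sum was -2.57 (SE 0.13, adjusted p = 2.37e-09). Most reads of the sum came from Trim12a, Trim12c and Trim30d, already called lower above. Its p-value is therefore no separate evidence of a fall. The sum does not depend on how reads were split among these 7 genes, but reads exchanged with genes outside them, such as Trim30a, could still enter it.

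Around the cluster no tested gene moved as far down, but few tested genes lay close to it. Inside it no gene outside the family was tested. The nearest tested ones were Dnajc19-ps, 361 kb on the lower side (log2 ratio -0.58), and Gm5900, 442 kb on the higher side (-0.31). They averaged only 1.1 and 0.828 CPM over all libraries. Next outside the family came Rrm1 at 1770 kb on the lower side and Fam160a2 at 863 kb on the higher side. Where the fall ends cannot be told from so few genes. Within 2 Mb on either side 20 genes outside the family were tested, of which 10 rose, 2 fell and 8 were not called, where 29.3% of all tested genes were called higher and 28.2% lower. Their log2 ratios ran from -0.58 to 1.52 (Gvin-ps7), with a median of 0.14. The rising genes included Gvin-ps1, Gvin2, Gvin1 and Gvin-ps7, which share a family name and lie 1320 to 1950 kb from the cluster. These may not count as separate genes, and the groups overlapped for Gvin-ps1. Of the 1000 tested genes of chromosome 7, 322 rose and 225 fell, with a median of 0.06. Trim3, 1100 kb from the cluster on the higher side, rose, and Trim21, 1680 kb on the lower side and not in the set, was not called (adjusted p = 0.137).

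**Figure D3:**
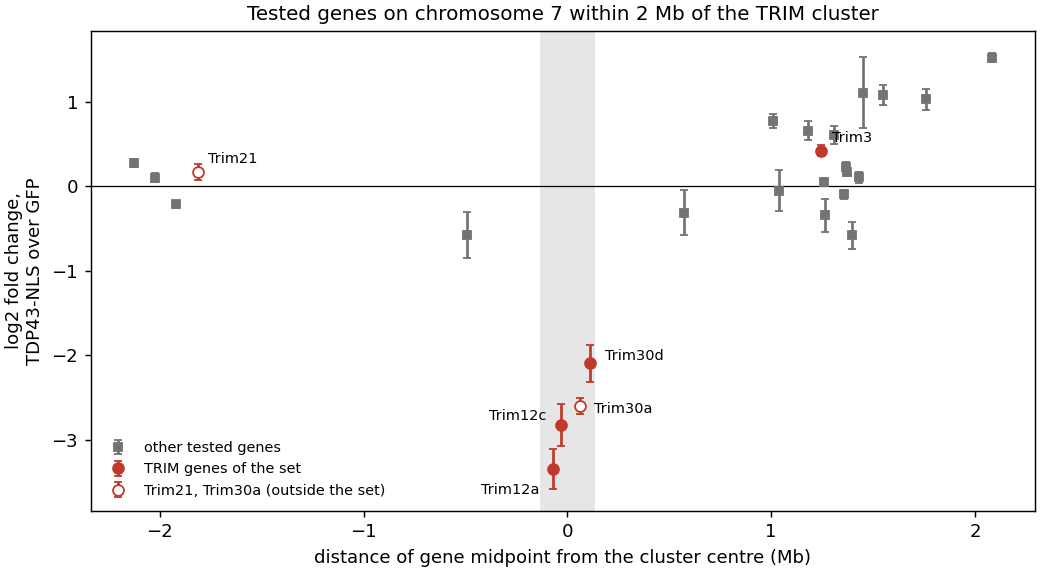
Log2 ratio (TDP43-NLS over GFP, vertical axis, bars are standard errors) of tested genes against distance from the centre of the chromosome 7 cluster, shaded; marker shapes separate TRIM genes of the set, Trim21 and Trim30a, and other genes. Tested genes in the shaded span lie at -2.10 or below, and no gene around them lies below -0.58.

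The PHD-bromodomain members are nuclear cofactors of transcription, and they moved in different directions. Trim28, also called KAP1, silences retroelements with the methyltransferase Setdb1 and HP1 proteins. Trim28 (ENSMUSG00000005566, chromosome 7, 12733041 to 12764962, plus strand) had 5145, 5898 and 5805 reads with TDP43-NLS and 7527, 7803 and 8579 with GFP. All TDP43-NLS libraries were below all GFP libraries once scaled, at 338 ± 8.3 CPM with TDP43-NLS and 479 ± 14.7 CPM with GFP (SD, n = 3 each; log2 ratio -0.50, SE 0.04, adjusted p = 2.67e-07). Trim28 was not called in a test against a log2 ratio of 0.5 (adjusted p = 0.888). Trim66 (ENSMUSG00000031026, chromosome 7, 109048213 to 109107341, minus strand), the member of this class that lacks a RING finger, had the largest rise among the 35. It had 171, 214 and 192 reads with TDP43-NLS and 58, 53 and 63 with GFP (log2 ratio 1.73, SE 0.11, adjusted p = 2.65e-08), with no overlap. Trim24, a cofactor of nuclear receptors, rose with 174, 208 and 211 reads with TDP43-NLS and 120, 139 and 165 with GFP (log2 ratio 0.48, SE 0.10, adjusted p = 0.000778). Trim33, a regulator of Smad4 signalling, had 1619, 1908 and 1921 reads with TDP43-NLS and 1677, 1947 and 1929 with GFP. Its groups overlapped and it was not called (log2 ratio -0.03, adjusted p = 0.621).

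The next members described are Trim65, Trim47, Trim14, Trim26, Trim56 and Trim8, which do not form a list of their own. Trim65, known to ubiquitinate and activate the RNA sensor MDA5, had 160, 173 and 173 reads with TDP43-NLS and 276, 296 and 333 with GFP, and the groups were far apart (log2 ratio -0.84, SE 0.08, adjusted p = 1.42e-06). Its gene model overlaps that of Trim47 on the same strand over 5365 bases, and Trim47 fell by 0.23 (adjusted p = 0.00671). Ifih1, the gene of MDA5, had 20, 17 and 19 reads with TDP43-NLS and 188, 176 and 193 with GFP (log2 ratio -3.31, adjusted p = 1.05e-09). Trim14, a RING-less adaptor known to act with Mavs at mitochondria, had 161, 183 and 162 reads with TDP43-NLS and 67, 122 and 93 with GFP. It rose (log2 ratio 0.85, SE 0.15, adjusted p = 0.000302), and although the GFP libraries varied widely they stayed below the others. Leaving out each library in turn gave log2 ratios of 0.70 to 1.06. In the transcripts Trim14 shares 29.5% of its 50-base stretches with Nans, a gene overlapping it on the opposite strand, which had 1540, 1984 and 1935 reads with TDP43-NLS and 1848, 1833 and 2120 with GFP. The part of shared reads in the Trim14 result was not tested. Trim26, known to degrade nuclear Irf3, rose with 1596, 1790 and 1929 reads with TDP43-NLS and 1309, 1450 and 1433 with GFP (log2 ratio 0.34, SE 0.05, adjusted p = 5.17e-05). Trim56, linked to cytosolic DNA sensing, had 588, 703 and 663 reads with TDP43-NLS and 656, 691 and 712 with GFP. Its scaled groups did not overlap, but it was not called (log2 ratio -0.08, adjusted p = 0.227). Trim8, an activator of NF-kB in human cells, had 1471, 1779 and 1605 reads with TDP43-NLS and 1571, 1954 and 1745 with GFP, overlapped between groups and was not called (log2 ratio -0.12, adjusted p = 0.11).

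Trim13 and Trim59, which have a membrane anchor, moved in opposite directions. Trim13 (ENSMUSG00000035235, chromosome 14, 61835696 to 61843395, plus strand), a ligase of endoplasmic reticulum-associated degradation, had 219, 289 and 271 reads with TDP43-NLS and 123, 129 and 122 with GFP. That is 2.08 times the GFP level (log2 ratio 1.05, SE 0.09, adjusted p = 4.23e-07), and every TDP43-NLS library was above every GFP library. The lncRNA gene Dleu2, which overlaps it on the opposite strand, had 152, 184 and 188 reads with TDP43-NLS and 166, 229 and 211 with GFP. The labels' protocol names no step that marks strand, so reads of such overlapping pairs may not be told apart. In the GENCODE M21 transcripts, however, no 50-base stretch of Trim13 occurs in Dleu2 on either strand. Another gene, Gm9359, holds 14.2% of its 50-base stretches and 1.03% of its 100-base stretches. The part of shared reads in the Trim13 result was not tested. Trim59 fell with 494, 615 and 646 reads with TDP43-NLS and 669, 762 and 769 with GFP (log2 ratio -0.33, SE 0.06, adjusted p = 0.000285).

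Among COS-box members, which bind microtubules or sarcomeres, Trim63 had the largest log2 ratio in size of the 35. Trim63 (ENSMUSG00000028834, chromosome 4, 134042431 to 134056940, plus strand), the muscle ligase MuRF1 known from muscle wasting, had 0, 2 and 2 reads with TDP43-NLS and 30, 41 and 48 with GFP. It was low even in the GFP libraries, at 0.0759 ± 0.0657 CPM with TDP43-NLS and 2.37 ± 0.406 CPM with GFP (SD, n = 3 each; log2 ratio -4.77, SE 0.42, adjusted p = 5.82e-07). Trim63 reached the read minimum through the GFP libraries alone, so it had to differ to be tested. Leaving out each library in turn gave log2 ratios of -5.11 to -4.29. Striated muscle markers (4 of 5 with a read, Myog at 0) summed to 2.13 to 2.25 CPM with TDP43-NLS and 1.16 to 1.78 CPM with GFP. The markers went different ways: Des averaged 1.15 CPM with TDP43-NLS and 0.235 CPM with GFP, and Ttn 0.885 CPM with TDP43-NLS and 1.06 CPM with GFP. Their part in the Trim63 result was not tested. Trim36, a microtubule-binding ligase, fell with 47, 54 and 55 reads with TDP43-NLS and 77, 77 and 80 with GFP (log2 ratio -0.58, SE 0.13, adjusted p = 0.00186). Trim46, which organises axonal microtubules in neurons, had 122, 130 and 119 reads with TDP43-NLS and 91, 103 and 126 with GFP, with overlapping groups and no call (log2 ratio 0.22, adjusted p = 0.139).

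Among NHL-repeat members, Trim3, a neuronal ligase, rose with 422, 509 and 514 reads with TDP43-NLS and 315, 368 and 400 with GFP (log2 ratio 0.42, SE 0.06, adjusted p = 0.000105). Trim2, which ubiquitinates neurofilament light chain in neurons, fell with 242, 260 and 274 reads with TDP43-NLS and 297, 353 and 380 with GFP (log2 ratio -0.41, SE 0.08, adjusted p = 0.000596). Trim32, mutated in a limb-girdle muscular dystrophy, had 482, 541 and 551 reads with TDP43-NLS and 540, 578 and 605 with GFP. Its scaled groups did not overlap, but it was not called (log2 ratio -0.13, adjusted p = 0.0611). Members with a C-terminal domain of their own kind differed as well. Trim45, with a filamin domain, rose with 210, 212 and 212 reads with TDP43-NLS and 137, 135 and 125 with GFP (log2 ratio 0.68, SE 0.11, adjusted p = 0.000122). Trim37, with a MATH domain and mutated in Mulibrey nanism, fell with 1598, 1972 and 1819 reads with TDP43-NLS and 2042, 2239 and 2308 with GFP (log2 ratio -0.29, SE 0.04, adjusted p = 5.07e-05). Trim23, with an ARF GTPase domain, had 262, 316 and 323 reads with TDP43-NLS and 252, 315 and 328 with GFP, and its log2 ratio of 0.01 changed sign with the scaling (adjusted p = 0.922).

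The most abundant SPRY members and the RING-less Trim44 and Trim29 made smaller shifts. Trim35, first described as a haematopoietic lineage switch gene, rose with 3449, 4194 and 4190 reads with TDP43-NLS and 2909, 3022 and 3291 with GFP (log2 ratio 0.36, SE 0.04, adjusted p = 5.62e-06). Trim27, the RET finger protein, fell with 1797, 2185 and 2149 reads with TDP43-NLS and 2402, 2649 and 2641 with GFP (log2 ratio -0.33, SE 0.04, adjusted p = 1.25e-05). In both the scaled groups were apart. Trim41, a ligase for protein kinase C, rose with 1030, 1232 and 1103 reads with TDP43-NLS and 902, 892 and 1037 with GFP (log2 ratio 0.25, adjusted p = 0.00243). Trim44 carries a ubiquitin-protease-type zinc finger in place of a RING and fell with 1938, 2072 and 2125 reads with TDP43-NLS and 2307, 2460 and 2583 with GFP (log2 ratio -0.26, adjusted p = 0.000432). Trim29, an inhibitor of innate responses in alveolar macrophages of mice, fell with 1001, 1206 and 1149 reads with TDP43-NLS and 1162, 1322 and 1363 with GFP (log2 ratio -0.20, adjusted p = 0.00239). It lies on chromosome 9, whose 712 tested genes had a median log2 ratio of -0.31. Trim39 fell by 0.19 (adjusted p = 0.0142), a call that was lost without TDP43-NLS replicate 2 (adjusted p = 0.0668), TDP43-NLS replicate 3 (0.0662) or GFP replicate 1 (0.0548). Trim7, Trim11, Trim16, Trim17 and Trim62 were tested and not called, with adjusted p of 0.234 to 0.969.

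By length-scaled level, the mean FPKM over all libraries, 13 genes of the set were at 10 or more, 12 between 1 and 10 and 25 below 1. Trim28 ranked first, at 80.1 ± 1.82 FPKM with TDP43-NLS and 116 ± 3.34 FPKM with GFP, followed by Trim35 at 50.5 ± 0.968 FPKM with TDP43-NLS and 40.4 ± 1.01 FPKM with GFP (SD, n = 3 each). Next came Trim8 at 25.8 ± 1.12 FPKM with TDP43-NLS and 28.8 ± 2.48 FPKM with GFP, and Trim27 at 22 ± 0.257 FPKM with TDP43-NLS and 28.3 ± 0.632 FPKM with GFP. In the GFP libraries the order of Trim8 and Trim27 lay within their spread. Genes with a called log2 ratio of at least 1 in size were not among the most abundant. The first of them, Trim13, stood at rank 15 of 50, with 9.29 ± 0.459 FPKM with TDP43-NLS and 4.6 ± 0.308 FPKM with GFP. The others lay between rank 28 (Trim66) and rank 33 (Trim12a). Reads of the set made up 0.173% ± 0.00181 of a library with TDP43-NLS and 0.193% ± 0.000163 with GFP (SD, n = 3 each). Trim28 held 19.3% of those reads with TDP43-NLS and 25.0% with GFP.

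**Figure D4:**
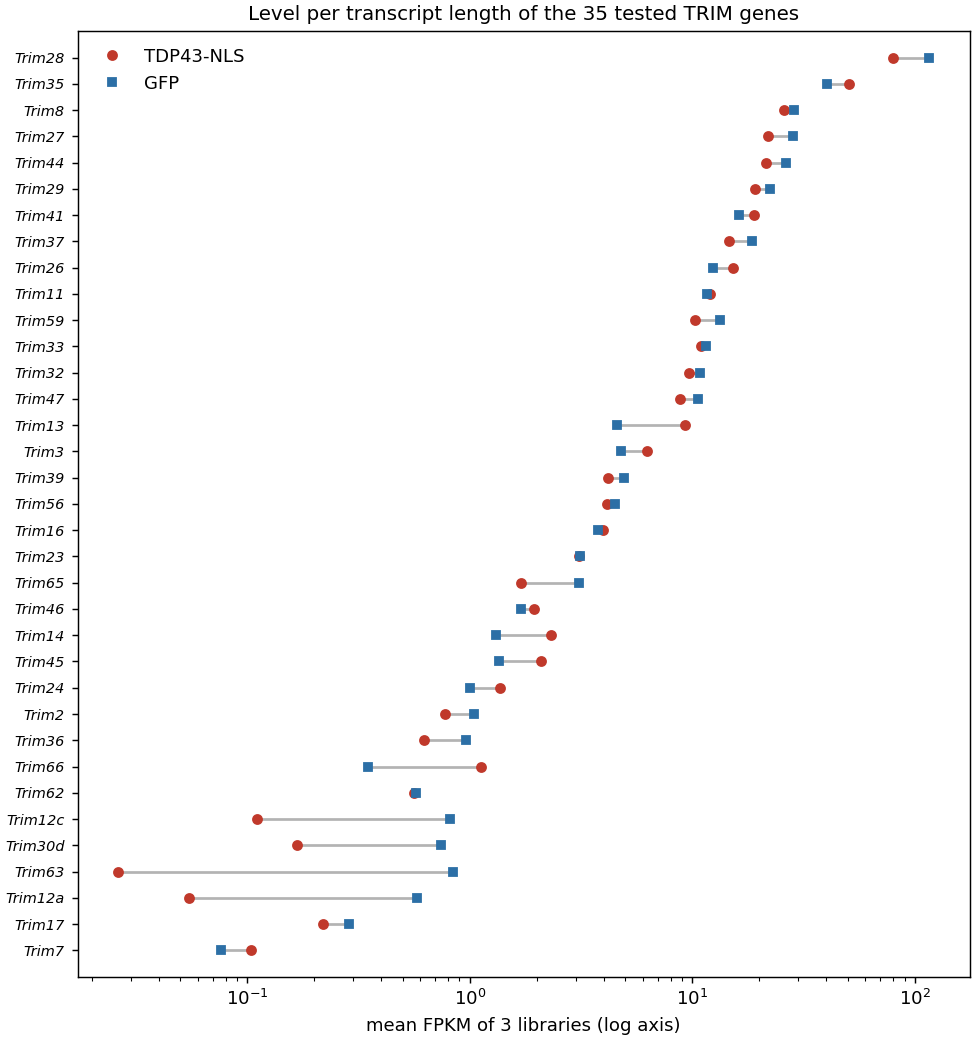
Mean FPKM of 3 libraries (log axis) of the 35 tested TRIM genes, ordered by their mean over both groups, with the TDP43-NLS and GFP means joined by a line. Trim28 and Trim35 lead, and Trim63, Trim12a and Trim12c have the longest lines.

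Outside the cluster 11 members were not tested, and their reads were few. Trim67, Trim69, Trim15, Trim38, Trim72, Trim50, Trim43a, Trim10, Trim54, Trim75 and Trim71 had 2 to 35 reads over the 6 libraries. The 95% exact interval of the ratio between groups included 1 for each of them. Trim72, known for repair of muscle membranes, had 3, 4 and 4 reads with TDP43-NLS and 2, 4 and 1 with GFP. Trim54, a muscle relative of Trim63, had a read in no GFP library and in 1 TDP43-NLS library. In the deposited Gene Ontology annotation 19 of the 50 genes carry the term innate immune response, and 8 the term defense response to virus. Of all 25032 genes with a read, 415 and 179 carry these terms. Trim5, Trim12c, Trim30b, Trim30c and Trim30d carry both terms.

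Genes that act with TRIM proteins were counted over lists. Over all tested genes 57.5% were called, 29.3% higher and 28.2% lower, and the counts stand beside those shares. Of 21 genes for ubiquitin and its activating and conjugating enzymes, 3 rose, 6 fell and 12 were not called, with a median log2 ratio of -0.03. Ube2l3, a conjugating enzyme, fell with 1726, 2122 and 2147 reads with TDP43-NLS and 2787, 2963 and 3167 with GFP (log2 ratio -0.57, adjusted p = 8.77e-08). Of 12 tested signalling partners 6 rose (Ikbkg, Irf3, Mavs, Sting1, Tbk1 and Ticam1) and 5 fell (Ifih1, Map3k7, Tab1, Tab2 and Traf6), with a median of 0.13. The list of signalling partners held 13 genes, but Rigi was not found under that name, so its level is not given. Ticam1, the adaptor of Toll-like receptor 3, had 481, 599 and 531 reads with TDP43-NLS and 239, 303 and 275 with GFP (log2 ratio 0.98, adjusted p = 1.4e-07). Of 12 partners of the PHD-bromodomain proteins 4 rose and 5 fell, with a median of -0.07. Cbx5, an HP1 protein, fell with 4108, 4999 and 4852 reads with TDP43-NLS and 6769, 7043 and 7709 with GFP (log2 ratio -0.63, adjusted p = 2.13e-08), while Setdb1 rose by 0.14 (adjusted p = 0.0082). Of TRIM family genes under other names, Pml, the organiser of nuclear bodies, rose by 0.20 (adjusted p = 0.0386) with overlapping groups. Mid2, a microtubule-binding ligase, fell with 26, 29 and 23 reads with TDP43-NLS and 55, 77 and 70 with GFP (log2 ratio -1.37, adjusted p = 2.26e-05), and its relative Mid1 was not called (adjusted p = 0.108).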

How the data were processed

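Poly(A)-selected RNA of 6 BV2 libraries was sequenced. The submitters' processing notes list Bowtie2 2.2.3, HISAT2 2.1.0 and HTSeq 0.6.0, without their roles, and the build GRCm39. The deposited count table holds raw reads per gene for 55359 genes, with no row that lacks a gene. The deposited FPKM values, scaled by the authors for length and depth, cover the 25032 genes with a read and are a fixed rescaling of the counts (largest relative deviation within a gene 6.33e-16). No source used here says if counting was strand-aware.

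Counts were tested with edgeR 4.0.16 in R 4.3.3 (filterByExpr with 10 reads and 15 in total, TMM, quasi-likelihood test, group as the only term, two-sided, Benjamini-Hochberg over 13199 genes). CPM are TMM-scaled and the standard error is the absolute log2 fold change over the square root of F. Intervals and floors cover counting error only. Alternatives used DESeq2 1.42.0 and, on log2(FPKM + 1) and log2(FPKM + 0.1), limma 3.58.1. The biological coefficient of variation was 4.62%.

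Members and lists were chosen with earlier results of these data known. Reads per library are given for the chromosome 7 cluster, up to 10 called members each way with the largest fold change and a mean of at least 1 CPM, and the 3 members with the smallest adjusted p in each class; other genes were named after their values were seen.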

Additional observations from a re-analysis of the deposited data

How the results depend on the processing

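The counts of TRIM calls, 9 higher and 15 lower, stayed within 1.5 times of these values under DESeq2, the other scalings, the other read minimums, the limma fits on FPKM, the replicate block and each left-out library (9 higher throughout, 12 to 17 lower; 14 to 15 lower with a library left out). Against a log2 fold change of 0.5 they were 3 and 5 (all genes 1221 higher and 744 lower), and 16 called TRIM genes lost their calls. The genes still called were Trim12a, Trim12c, Trim30d, Trim63, Trim65, Trim13, Trim14 and Trim66. The 3 lower calls of the chromosome 7 cluster became 1 when 50 reads in 3 libraries were required, 0 in both limma fits with a minimum mean FPKM, which tested none of the 3, and 1 when the cluster was summed into 1 feature. They became 4, with Trim30c, in the edgeR and limma fits without a filter. With the replicate number as a block (replicate block) there were also 9 higher and 15 lower calls and 3 in the cluster; same-numbered libraries did not deviate together (correlations -0.016, -0.0112 and 0.00189). Of the 24 called genes 23 kept their call without each library in turn, the exception being Trim39, which DESeq2 also did not call. Trim2 was not called by limma without a filter. Trim32 was called under upper-quartile scaling, library totals and the limma fits, and Trim8 under library totals. Uncalled genes near 0 changed sign: Trim23 was at -0.0048 with upper-quartile scaling and -0.026 with library totals. In limma it was at -0.0169 on log2(FPKM + 1), with and without the filter, and at -0.021 on log2(FPKM + 0.1). With a library left out it ran from -0.052 to 0.0431. Trim62 was at -0.0062 and -0.0273 under those scalings. In limma it was at -0.0108 on log2(FPKM + 1), with and without the filter, and at -0.0253 on log2(FPKM + 0.1). With a library left out it ran from -0.107 to 0.129. Trim17 ranged from -0.704 to 0.0929 with a library left out. For these changes the cause was not tested. Other scalings moved the median of all genes by -0.0365 at most. Depth limits the 15 untested members, of which none had more than 14 reads in a library.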
